A study of Homo sapiens with 12 samples.

Results

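Small nucleolar RNA host transcripts are spliced RNAs whose introns carry small nucleolar RNAs (snoRNAs). The members were all genes of the count table whose symbol is SNHG followed by a number, together with GAS5, ZFAS1, DANCR and EPB41L4A-AS1. Membership was thus set by name and not by level or change, but the set was chosen with earlier results of these data known. The members were 32 of 60707 genes, and 29 of them passed the low-count filter that left 17859 genes for testing. The cells were Raji, a B-cell line from a Burkitt lymphoma, in which SMARCA4 can be degraded on addition of auxin through a degron. SMARCA4, also called BRG1, is the ATPase of SWI/SNF chromatin remodellers. The 4 groups were GFP-high cells with DMSO, the vehicle, GFP-high cells with FX1, GFP-low cells with DMSO and GFP-low cells with FX1, with 3 libraries each at 24 h. FX1 blocks BCL6, a repressor that germinal centre B cells depend on, and the study asks how it acts once SMARCA4 protein is degraded. All 12 libraries carry the genotype Smarca4+/+. The labels leave unsaid what GFP reports on, which libraries received auxin, whether the line is 1 clone or whether replicates were separate cultures. The p-values thus rest on library-to-library spread alone, and that spread may be technical.

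SnoRNAs guide the chemical modification of ribosomal RNA and other small RNAs: those with boxes C and D direct ribose methylation, and those with boxes H and ACA direct pseudouridylation. In human cells most are cut from introns after splicing, while many spliced host RNAs are exported, engaged by ribosomes on short reading frames and removed by nonsense-mediated decay. Many host genes start with a cytosine followed by a run of pyrimidines (a TOP start), as ribosomal protein genes do, which ties their translation, and with it their turnover, to growth signalling through mTOR. The level of a host RNA therefore need not follow the rate at which it is transcribed or the amount of the snoRNA it carries. GAS5, for example, was found as a transcript that accumulates in growth-arrested cells.

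RefSeq promoter windows (build GRCh38.p14) were matched by symbol for 28 of the 32 members. A start at C with at least 4 further pyrimidines was found in 7 of the 28 (25%): SNHG4, SNHG5, SNHG12, SNHG18, SNHG19, SNHG32 and ZFAS1. Among all 35116 windows the share was 4.07%. The windows of 6 of these genes are shown because the FX1 results are set beside this feature. Each line gives 30 bases before the annotated start and 40 from it, 5′ to 3′ on the strand of the gene, with the pyrimidine run that holds the start, base 31, in capitals.

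SNHG5, chr6:85678694-85678763, minus strand: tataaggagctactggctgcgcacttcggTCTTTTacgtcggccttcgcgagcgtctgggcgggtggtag

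SNHG12, chr1:28581834-28581903, minus strand: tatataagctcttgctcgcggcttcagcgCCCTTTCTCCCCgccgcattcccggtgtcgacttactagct

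SNHG19, chr16:2155319-2155388, minus strand: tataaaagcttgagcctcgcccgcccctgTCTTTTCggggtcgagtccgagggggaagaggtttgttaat

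SNHG4, chr5:139274071-139274140, plus strand: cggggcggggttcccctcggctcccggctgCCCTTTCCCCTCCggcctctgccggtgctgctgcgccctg

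ZFAS1, chr20:49278612-49278681, plus strand: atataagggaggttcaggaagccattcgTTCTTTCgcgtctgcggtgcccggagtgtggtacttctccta

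SNHG32, chr6:31834886-31834955, plus strand: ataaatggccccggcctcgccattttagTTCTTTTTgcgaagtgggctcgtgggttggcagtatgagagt

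A TATA in bases 40 to 21 before the start, on the strand of the gene, was present in 6 of the 28 windows (21.4%), against 5.91% of all windows. SNHG5, SNHG12, SNHG19 and ZFAS1 held both that TATA and the TOP start. This combination, picked after the sequences were seen, occurred in 4 of 28 windows (14.3%) and in 58 of 35116 (0.165%). For comparison, the windows of 4 other members with large changes follow. SNHG8 starts at the last C of its run and SNHG1 at a C with 2 pyrimidines behind it, while SNHG10 and SNHG17 start at a, so no run is in capitals there.

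SNHG8, chr4:118278732-118278801, plus strand: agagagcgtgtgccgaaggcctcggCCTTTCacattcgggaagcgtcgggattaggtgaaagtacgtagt

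SNHG1, chr11:62855846-62855915, minus strand: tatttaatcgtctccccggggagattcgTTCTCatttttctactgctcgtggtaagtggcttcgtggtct

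SNHG10, chr14:95534833-95534902, minus strand: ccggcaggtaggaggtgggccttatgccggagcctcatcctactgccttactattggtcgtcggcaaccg

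SNHG17, chr20:38435289-38435358, minus strand: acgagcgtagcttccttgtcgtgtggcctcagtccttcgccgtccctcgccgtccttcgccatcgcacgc

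The RefSeq start and the outer end of the counted gene differed by 199 bases for SNHG5, 308 for SNHG32, 464 for ZFAS1 and 1259 for SNHG12, so other starts are also counted for these genes. CACGTG, the E-box bound by MYC, occurred on either strand in 2 of the 28 windows of 300 bases (7.14%, against 7.26% of all windows). A match of letters is a description of the sequence, not a site.

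Total counts per library lay between 20454028 and 42556661. The mitochondrial share of counts was 7.88% in GFP-high DMSO libraries and 4.28% to 5.09% in the other groups. BCL6 RNA lay between 398.6 and 400.6 CPM (counts scaled to a common library size with TMM factors) in GFP-high DMSO and between 196 and 203 CPM in GFP-high FX1. In the GFP-low gate BCL6 RNA lay between 329 and 345 CPM with DMSO and between 211 and 226 CPM with FX1. SMARCA4 RNA lay between 452 and 460 CPM in GFP-low FX1 and between 376 and 401 CPM in the other groups. A degron acts on the protein, so the SMARCA4 RNA does not check the labels. The summed level of 7 B-cell markers lay between 3345 and 3360 CPM in GFP-high DMSO, 2457 and 2473 in GFP-high FX1, 2807 and 2819 in GFP-low DMSO and 1919 and 1932 in GFP-low FX1, with 4 of the 7 lower under FX1 in each gate and 3 and 2 higher. The 5 markers of T and NK cells summed to 6.33 to 7.51, 3.83 to 4.06, 4.6 to 6.1 and 2.52 to 2.96 CPM in the same order, with CD2 at 0 counts in 3 groups, the 4 myeloid markers to at most 6.39 CPM and the 5 epithelial and stromal markers to at most 17.3 CPM. The part of these shifts in the results below was not tested.

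Host transcripts spanned about 2 orders of magnitude in level per kilobase of counted exons. In GFP-high DMSO libraries SNHG6 stood at 125 ± 2.46 CPM per kb (SD, n = 3), GAS5 at 123 ± 0.560, SNHG29 at 96.5 ± 1.31 and SNHG3 at 80.9 ± 1.34. At the low end of the tested members were SNHG20 at 2.14 ± 0.035, SNHG22 at 2.05 ± 0.145 and SNHG31 at 1.32 ± 0.432 CPM per kb. In this order, 8 of the 28 pairs of neighbours had overlapping library ranges, SNHG6 and GAS5 among them. The counted exons join those of all isoforms and are often far longer than the longest transcript. They add up to 12604 bases for SNHG5 against 1032, 7176 against 1662 for SNHG29 and 1247 against 648 for SNHG6. The order therefore depends on the length used and is not an order of abundance per transcript. SNHG14, the long transcript of the Prader-Willi region that holds 84 of the hosted rows described below, was among the 3 highest by CPM but stood at only 4.72 ± 0.061 CPM per kb, since its counted exons add up to 122609 bases. The coefficient of variation within a group had a median of 2.47% over the 29 members and 4 groups (range 0.21% to 32.7%).

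**Figure D1:**
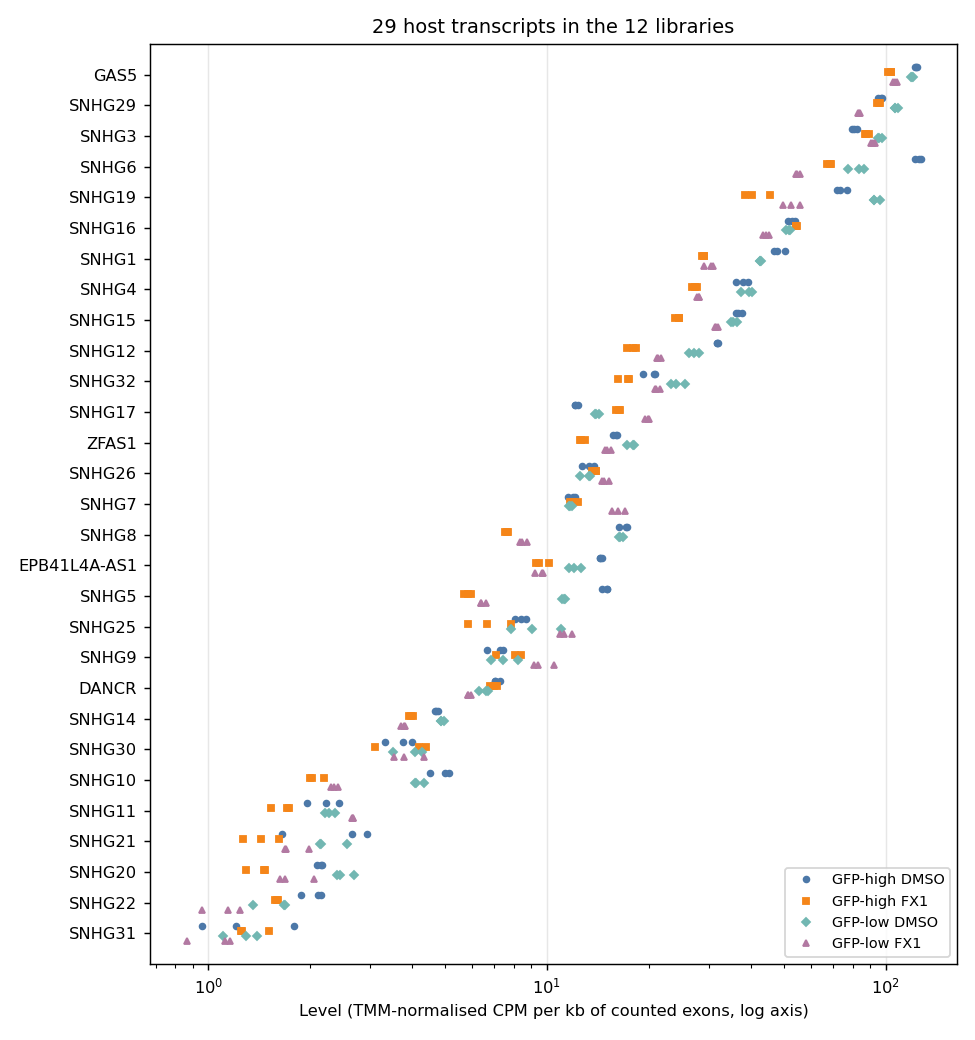
Levels of the 29 tested host transcripts, as TMM-normalised CPM per kb of counted exons on a log axis, with 1 point per library and 3 libraries in each of 4 groups. GAS5, SNHG29, SNHG3 and SNHG6 are at the top, and for most genes the libraries of a group lie closer together than the groups do.

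The other 3 members were not expressed at a level that these libraries could measure. SNHG18 had 1 count over all 12 libraries and SNHG28 had 4. SNHG27 had 0 counts in every library, which allows up to 0.0705 to 0.147 CPM depending on depth (3 counts, counting error only, since reads copied by PCR and lacking molecular identifiers are not independent). SNHG18, the seventh gene with a TOP start, therefore adds nothing to the comparisons below.

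The share of all counts that fell on the 32 members was 0.395% ± 0.0004 (SD, n = 3) in GFP-high DMSO and 0.355% ± 0.00095 in GFP-high FX1, with no overlap of the libraries. In the GFP-low gate it was 0.437% ± 0.0025 with DMSO and 0.382% ± 0.0018 with FX1. With mitochondrial counts taken out of the total, the shares were 0.428% and 0.371% in GFP-high and 0.458% and 0.402% in GFP-low, so the order of the groups within each gate was the same on both totals. In bulk RNA, fewer cells of a type and less RNA per cell cannot be told apart.

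Under FX1 in GFP-high cells, most host transcripts were lower than under DMSO. Of the 29 tested, 18 were lower, 3 were higher and 8 were not called at an adjusted p under 0.05, against 34.6% lower and 33.8% higher (68.4% called) among all 17859 genes. The median log2 change was -0.33 over the members and -0.01 over all genes tested. At least 1.5-fold lower were 10 members, against 18.2% of all genes, and 0 were at least 1.5-fold higher, against 13.7%. The ranges of the 2 groups did not overlap for 22 members, against 70.2% of all genes.

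SNHG5, the host of SNORD50 snoRNAs, fell most (ENSG00000203875.13, chromosome 6 from 85650491 to 85678932, minus strand). Its libraries read 184, 189.7 and 189.9 CPM with DMSO and 75.4, 73.7 and 71.5 CPM with FX1. That is a 2.55-fold lower level (log2 change -1.35, SE 0.026, edgeR adjusted p = 1.3e-130), with all 3 FX1 libraries far below the DMSO range. SNHG8, which carries SNORA24 (ENSG00000269893.8, chromosome 4 from 118278709 to 118285316, plus strand), read 108, 113 and 114 CPM with DMSO and 50.9, 49.7 and 50.4 CPM with FX1. It was 2.22-fold lower (log2 change -1.15, SE 0.032, edgeR adjusted p = 5.9e-97), again without overlap. SNHG10, the host of the Cajal body RNA SCARNA13 (ENSG00000247092.7, chromosome 14 from 95521943 to 95534889, minus strand), went from 24.5, 27.2 and 27.9 CPM to 11.96, 10.998 and 10.9 CPM. Its level was 2.36-fold lower (log2 change -1.24, SE 0.066, edgeR adjusted p = 9.2e-48), a change of similar size at a much lower level.

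A second tier fell by between 1.5-fold and 2-fold. SNHG6, which carries SNORD87, went from 152, 158 and 157 CPM to 83.4, 86.1 and 85.3 CPM. It was 1.84-fold lower (log2 change -0.88, SE 0.027, edgeR adjusted p = 3.1e-87). SNHG12, the host of SNORA44, SNORA61, SNORA16A and SNORD99, read 136, 136 and 136 CPM with DMSO and 73.5, 78.1 and 76.4 CPM with FX1, a log2 change of -0.84 (SE 0.028). For both genes every FX1 library was far below every DMSO library. SNHG1, whose introns carry a series of C/D snoRNAs, SNORD22 and SNORD30 among them, read 201, 185 and 189 CPM with DMSO and 116, 115 and 114 CPM with FX1, a log2 change of -0.73 (SE 0.024). SNHG19 (-0.83), SNHG15 (-0.60), SNHG20 (-0.60) and the sparse SNHG21 (-0.78, SE 0.20) complete the 10 members past 1.5-fold. SNHG15 and SNHG20 lay close to that line, at 1.52-fold and 1.51-fold lower, and EPB41L4A-AS1 just short of it, at log2 -0.58.

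GAS5 and SNHG14, among the 3 most abundant members by CPM, fell less. GAS5 (ENSG00000234741.8, chromosome 1 from 173858559 to 173868882, minus strand) read 598, 592 and 595 CPM with DMSO and 502, 503 and 492 CPM with FX1, a 1.19-fold lower level (log2 change -0.25, SE 0.014, edgeR adjusted p = 1.9e-46). SNHG14 showed the same log2 change of -0.25 (edgeR adjusted p = 3.9e-44), from 586, 576 and 572 CPM to 492, 481 and 486 CPM. SNHG4, the host of SNORA74 snoRNAs, read 162, 169.9 and 175 CPM with DMSO and 122, 119.8 and 124 CPM with FX1 (-0.47), again without overlap. ZFAS1, with the SNORD12 family, read 134, 133 and 130.2 CPM and 104, 108 and 104 CPM (-0.33). SNHG11, SNHG22 and SNHG32 fell by 0.43, 0.36 and 0.25 on the log2 scale. SNHG29, the most abundant member by CPM and the host of SNORD49A, SNORD49B and SNORD65 (ENSG00000175061.18, chromosome 17 from 16438767 to 16478678, plus strand), stood at 696, 699.9 and 682 CPM with DMSO and 692, 677 and 686 CPM with FX1, ranges that overlap, with a 95% interval of the log2 change of -0.04 to 0.01. It was called lower, by 0.04, among genes with at least 50 counts in 3 libraries (edgeR adjusted p = 0.0016).

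Among the 29 tested members SNHG17, SNHG3 and SNHG16 rose, all by less than 1.5-fold. SNHG17, which carries SNORA71 snoRNAs (ENSG00000196756.13, chromosome 20 from 38419638 to 38435409, minus strand), read 146, 143 and 143 CPM with DMSO and 188, 194 and 193 CPM with FX1. Its rise was 1.33-fold (log2 change 0.41, SE 0.021, edgeR adjusted p = 6.7e-50). SNHG3, the host of SNORA73A and SNORA73B, RNAs that act in the processing of the small-subunit ribosomal RNA, read 337, 329 and 326 CPM with DMSO and 356, 356 and 366 CPM with FX1, a rise of 0.12 on the log2 scale (SE 0.016). SNHG16, with SNORD1A, SNORD1B and SNORD1C, read 284, 276 and 289.6 CPM with DMSO and 292, 293 and 291 CPM with FX1. Its rise was 0.05 (edgeR adjusted p = 0.017), a call lost without GFP-high DMSO replicate 2, where the change was 0.03 and the edgeR adjusted p was 0.24, and at 0.02 among genes with at least 50 counts in 3 libraries (edgeR adjusted p = 0.34). With a trend on GC content and transcript length removed from each library, the fall of GAS5 shrank to -0.05 (edgeR adjusted p = 4e-04), that of SNHG4 to -0.30 and that of SNHG32 to -0.16, while the rises of SNHG3 and SNHG16 grew to 0.24 and 0.14. On that setting SNHG29 (0.14), SNHG26 (0.29) and SNHG30 (0.28) were also called higher and SNHG7 (-0.22) lower.

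In GFP-low cells FX1 again lowered most host transcripts, with smaller falls at the head of the list. Of the 29 members, 20 were lower, 5 were higher and 4 were not called, against 34.3% lower and 33.7% higher (68% called) among all genes. The median log2 change was -0.25 over the members and -0.01 over all genes. At least 1.5-fold lower were SNHG8, SNHG19, SNHG10 and SNHG5, against 16.4% of all genes, and 0 members were at least 1.5-fold higher, against 15%. The group ranges did not overlap for 26 members, against 69.6% of all genes.

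SNHG8 fell most in this gate, from 110.5, 109 and 108 CPM with DMSO to 57.8, 54.9 and 55.7 CPM with FX1, 1.93-fold lower (log2 change -0.95, SE 0.031, edgeR adjusted p = 2.2e-82). SNHG19, a short transcript that carries SNORD60, read 31.6, 31.7 and 32.9 CPM with DMSO and 17.96, 16.95 and 19.1 CPM with FX1, a log2 change of -0.84 (SE 0.058). SNHG5 read 142, 139.8 and 142 CPM with DMSO and 80.5, 83.1 and 80.2 CPM with FX1, a log2 change of -0.80 (SE 0.027). These genes showed no overlap between treatments in either gate. SNHG10 read 22.2, 23.6 and 22.3 CPM and 12.5, 12.8 and 13.2 CPM, a log2 change of -0.83 (SE 0.066). SNHG6 changed by -0.58, SNHG1 by -0.50, SNHG22 by -0.51, SNHG20 by -0.51 and SNHG4 by -0.48.

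SNHG29 was lower under FX1 here: 762, 779 and 766 CPM with DMSO and 603, 595 and 600.0 CPM with FX1, 1.28-fold lower (log2 change -0.36, SE 0.013, edgeR adjusted p = 1.4e-73). SNHG16 read 280.2, 273 and 278 CPM with DMSO and 242, 234 and 238 CPM with FX1, a log2 change of -0.22 (SE 0.018). The libraries of both genes separated fully by treatment in this gate. GAS5 read 575, 581 and 579.9 CPM with DMSO and 522, 516 and 509 CPM with FX1 (-0.16). SNHG14 read 595, 610.0 and 598 CPM and 465, 456 and 466 CPM (-0.38). These abundant hosts also showed no overlap between treatments. Further log2 changes were -0.34 in SNHG12, -0.34 in EPB41L4A-AS1, -0.23 in ZFAS1, -0.21 in SNHG32, -0.17 in SNHG15, -0.15 in DANCR and -0.07 in SNHG3.

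Among the rises, SNHG17 went from 168, 164 and 166 CPM to 237, 229.9 and 234 CPM (1.41-fold, log2 change 0.50, SE 0.020, edgeR adjusted p = 1.9e-65), the only member higher in both gates. SNHG7, which carries SNORA17 snoRNAs, read 57.3, 58.1 and 56.9 CPM with DMSO and 76.2, 79.3 and 83.1 CPM with FX1, a log2 change of 0.46 (SE 0.034). SNHG9, a sparse transcript with SNORA78, read 4.10, 4.54 and 3.76 CPM and 5.19, 5.79 and 5.05 CPM (0.37). These 3 genes had higher values in every FX1 library than in any DMSO library of the gate. SNHG11 (0.22) and SNHG26 (0.18) were also called higher. SNHG7 and SNHG9 are GC-rich, at 65.9% and 66.5% of the longest transcript. Once the GC and length trend was removed, the rises of SNHG7, SNHG9 and SNHG11 were 0.02, 0.02 and 0.06 and no longer called, while that of SNHG17 was 0.47 and that of SNHG26 grew to 0.57 (edgeR adjusted p = 9.1e-46). On the same setting GAS5 turned from a fall of 0.16 to a rise of 0.09 (edgeR adjusted p = 3.5e-10), the fall of SNHG3 was lost, and those of SNHG6, SNHG1, SNHG4, SNHG29, SNHG16 and EPB41L4A-AS1 shrank by over 1.5 times (SNHG29 to -0.22, SNHG16 to -0.14), SNHG6 from -0.58 to -0.25.

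**Figure D2:**
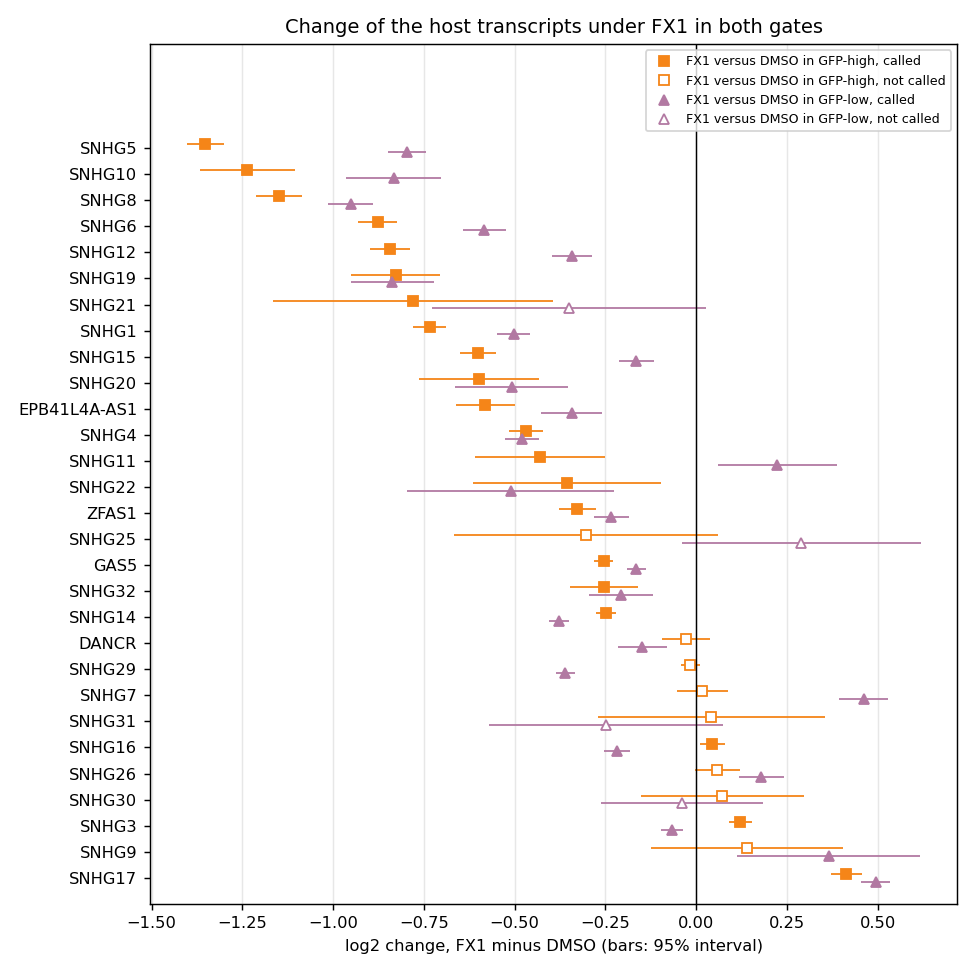
Change of each tested host transcript under FX1 in the GFP-high gate (squares) and the GFP-low gate (triangles), on the log2 scale with 95% intervals. Filled symbols passed an adjusted p of 0.05. Most symbols lie left of 0, from SNHG5 at -1.35 in GFP-high to SNHG17 at 0.50 in GFP-low.

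The treatment effects of the gates come from separate libraries and were set side by side. FX1 lowered 16 members in both gates and raised 1 in both, SNHG17. Another 3 were called in opposite directions: SNHG3 and SNHG16 were higher in GFP-high and lower in GFP-low, and SNHG11 was the reverse. The rise of SNHG11 in GFP-low and the fall of SNHG3 there were not called once the GC and length trend was removed. Not called in either gate were SNHG25, SNHG30 and SNHG31, all at mean levels under 7 CPM. Over the 29 members the log2 changes of the gates had a Pearson r of 0.788 and a Spearman rho of 0.767, as a description across genes, which share libraries and are not replicates.

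The 6 tested members with a TOP start (SNHG4, SNHG5, SNHG12, SNHG19, SNHG32 and ZFAS1) were lower under FX1 in both gates, 6 of 6 in each. Their log2 changes ranged from -1.35 to -0.25 in GFP-high (median -0.65) and from -0.84 to -0.21 in GFP-low (median -0.41). Of the 19 tested members with a promoter window but without that start, 10 were lower in GFP-high (median -0.25) and 12 in GFP-low (median -0.25), SNHG8 and SNHG10 among them. This split rests on 1 RefSeq start per gene. For GAS5 and SNHG14, both among the 19, the RefSeq start lay 163 and 154975 bases outside the counted gene. SNHG1, SNHG7, SNHG8 and SNHG26, also among the 19, start at a C but with fewer than 4 further pyrimidines. Among other tested genes matched to a window, 561 had the TOP start, of which 44.9% were lower in GFP-high and 47.1% in GFP-low, with median log2 changes of -0.07 and -0.11. Among the 9967 without it, 36.6% and 37.9% were lower, with medians of 0.01 in both gates. These counts are descriptions, and whether the start bears on the fall was not tested.

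**Figure D3:**
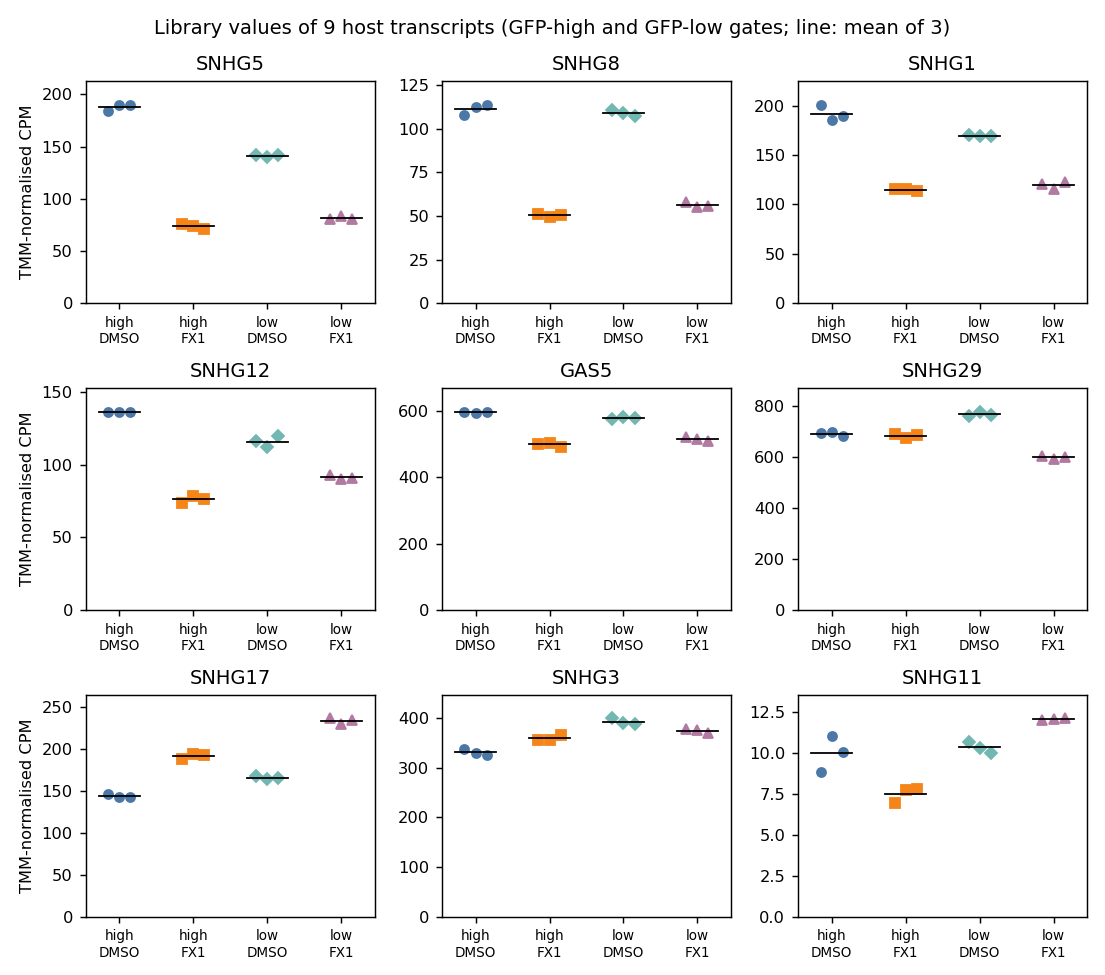
TMM-normalised CPM of 9 host transcripts in each of the 12 libraries, by gate and treatment, with a line at the mean of 3. SNHG5, SNHG8, SNHG1 and SNHG12 drop under FX1 in both gates, SNHG17 rises in both, SNHG29 drops by 0.36 on the log2 scale in GFP-low, and SNHG3 and SNHG11 move in opposite directions in the gates.

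Between the gates under DMSO, about as many host transcripts were higher as lower. Of the 29 members, 8 were higher in GFP-low than in GFP-high, 9 were lower and 12 were not called, against 21.7% higher and 24.4% lower (46.1% called) among all genes. The median log2 difference was -0.02, against 0.03 over all genes. The ranges did not overlap for 17 members, against 51.6% of all genes. SNHG6 alone among the members passed 1.5-fold, lower in GFP-low, where 2.69% of all genes did, while 0 members and 5.05% of all genes were at least 1.5-fold higher.

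SNHG6 read 152, 158 and 157 CPM in GFP-high and 107, 104 and 96.7 CPM in GFP-low, 1.52-fold lower (log2 change -0.60, SE 0.027, edgeR adjusted p = 1.3e-57). SNHG5 went from the GFP-high DMSO values given above to 142, 139.8 and 142 CPM, lower by 0.41 on the log2 scale. SNHG22 was lower by 0.36, EPB41L4A-AS1 by 0.26, SNHG12 by 0.23, SNHG10 by 0.23, SNHG1 by 0.17, DANCR by 0.12 and GAS5 by 0.04. The difference of GAS5 turned to 0.05 with the GC and length trend removed (edgeR adjusted p = 0.0014) and was not called without GFP-high DMSO replicate 1 or GFP-low DMSO replicate 1. On the higher side SNHG19 differed by 0.34 (SE 0.056), from 25.1, 24.5 and 26.3 CPM in GFP-high to 31.6, 31.7 and 32.9 CPM in GFP-low. SNHG32, which carries SNORD48 and SNORD52, went from 34.5, 37.6 and 37.2 CPM to 43.3, 46.02 and 41.9 CPM (0.26). SNHG3 (0.25), SNHG20 (0.23), SNHG17 (0.20), ZFAS1 (0.16), SNHG29 (0.15) and SNHG14 (0.06) were also higher. SNHG3 read 399, 389.9 and 389 CPM in GFP-low DMSO, all above GFP-high DMSO, and this difference was 0.30 with the trend removed, while those of ZFAS1 and SNHG20 were not called there and SNHG19 came to 0.21, below SNHG3. On that setting SNHG1 and EPB41L4A-AS1 shrank to -0.06 and -0.17, SNHG12 and DANCR moved to -0.35 and -0.24, and SNHG7 (-0.29), SNHG8 (-0.09) and SNHG4 (0.16) were called. The call of SNHG22 was lost without GFP-high DMSO replicate 1, GFP-high DMSO replicate 3 or GFP-low DMSO replicate 3, and that of SNHG20 without GFP-low DMSO replicate 3.

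Under FX1 the gates differed at more members, mostly toward higher levels in GFP-low. Of the 29, 18 were higher, 6 were lower and 5 were not called, against 30.2% higher and 26.7% lower (56.9% called) among all genes. The median was 0.14 over the members and 0.08 over all genes, and 26 members had ranges that did not overlap, against 61.1% of all genes. SNHG25 and SNHG11 were at least 1.5-fold higher, against 10.6% of all genes, and 0 members were at least 1.5-fold lower, against 4.6%. Without any 1 of the 3 GFP-high DMSO libraries, which are not part of this comparison but enter the common scaling and filter, 12 members were called higher in place of 18. The members lost were GAS5, SNHG1, SNHG3, SNHG9, SNHG10 and SNHG26, all with log2 differences of 0.32 or less. The same members were lost with scaling that leaves out mitochondrial genes and any gene over 1% of a library. On that scaling 12 members were higher and 7 lower. Higher calls then made up 47.5% of the calls over all genes, in place of 53.1%.

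SNHG11, the host of SNORA60 and SNORA71E, read 6.96, 7.72 and 7.82 CPM in GFP-high FX1 and 12.1, 12.1 and 12.1 CPM in GFP-low FX1, 1.62-fold higher (log2 change 0.69, SE 0.085, edgeR adjusted p = 1.4e-13). SNHG7 read 60.5, 57.1 and 58.5 CPM and 76.2, 79.3 and 83.1 CPM, a log2 difference of 0.43 (SE 0.033), which was -0.05 and not called with the GC and length trend removed. SNHG15, the host of SNORA9, read 93.9, 96.6 and 96.5 CPM and 126, 123 and 125 CPM, a log2 difference of 0.38 (SE 0.025), which was 0.32 on that setting. The libraries of these genes were fully separated between gates. SNHG17 differed by 0.29, SNHG19 by 0.33, SNHG20 by 0.32, SNHG32 by 0.31, SNHG12 by 0.27 and ZFAS1 by 0.25. With the trend removed 10 members were higher and 6 lower, and SNHG7, SNHG8, SNHG9, SNHG10, SNHG12, SNHG19, SNHG20, SNHG25 and ZFAS1 were no longer called, while SNHG4 was. On that setting SNHG17 and SNHG32 shrank to 0.17 and 0.19, and GAS5, SNHG1 and SNHG26 grew to 0.20, 0.18 and 0.34.

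Lower in GFP-low under FX1 were SNHG22 (-0.52), SNHG6 (-0.31), SNHG16 (-0.29), DANCR (-0.24), SNHG29 (-0.19) and SNHG14 (-0.07). SNHG16 read 292, 293 and 291 CPM in GFP-high and 242, 234 and 238 CPM in GFP-low. SNHG22, the host of SCARNA17, read 4.08, 4.13 and 4.18 CPM and 2.97, 2.49 and 3.21 CPM, so its difference rests on few counts. With the trend removed all 6 were still called lower, SNHG6 at -0.18 and DANCR at -0.43.

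The difference of the FX1 effect between the gates was tested directly, as GFP-low minus GFP-high. Of 29 members, 14 had a higher (less negative or more positive) change in GFP-low, 5 a lower one and 10 were not called, against 14.8% and 16.5% (31.3% called) among all genes. With scaling that leaves out mitochondrial genes and any gene over 1% of a library, higher calls made up 35.8% of the calls over all genes, in place of 47.2%. Of the 18 members that fell in GFP-high, 14 had a smaller fall or a rise in GFP-low, and for 11 of these the difference was called. The median difference was 0.09 over the members and 0.02 over all genes. At least 1.5-fold were 1 difference toward a higher change, that of SNHG11, against 3.31% of all genes, and 0 toward a lower one, against 2.32%.

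Among the called members SNHG11 had the largest difference, 0.65 on the log2 scale (SE 0.12, edgeR adjusted p = 2.4e-06): it fell in GFP-high and rose in GFP-low. SNHG5 followed with 0.56 (SE 0.037), where a 2.55-fold lower level in GFP-high stood against a 1.74-fold lower level in GFP-low. SNHG12 differed by 0.50 (SE 0.039), SNHG7 by 0.44 (SE 0.050), SNHG15 by 0.43 (SE 0.035) and SNHG10 by 0.40 (SE 0.094). SNHG6, EPB41L4A-AS1, SNHG1 and SNHG8 had smaller differences in the same direction, between 0.20 and 0.29. In the other direction, SNHG29 differed by -0.34 (SE 0.019) and SNHG16 by -0.26 (SE 0.025), so their change under FX1 was lower in GFP-low. SNHG3 (-0.19), SNHG14 (-0.13) and DANCR (-0.12) had smaller differences. The call of DANCR (edgeR adjusted p = 0.04) was lost in 6 of the 12 fits without 1 library, those without GFP-high FX1 replicate 1 or 3, GFP-low DMSO replicate 1 or 2, or GFP-low FX1 replicate 2 or 3, and with both other low-count filters. For SNHG4 and SNHG19 the interval of the difference was -0.08 to 0.05 and -0.18 to 0.16. Without any 1 of the GFP-high DMSO libraries the 14 became 10, with GAS5, SNHG17, SNHG26 and ZFAS1 lost, and with the trend removed SNHG17 and ZFAS1 were lost and SNHG7 came to 0.24, while DANCR, GAS5 and SNHG26 grew to -0.18, 0.15 and 0.28. SNHG25 differed by 0.59 without being called (edgeR adjusted p = 0.056).

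**Figure D4:**
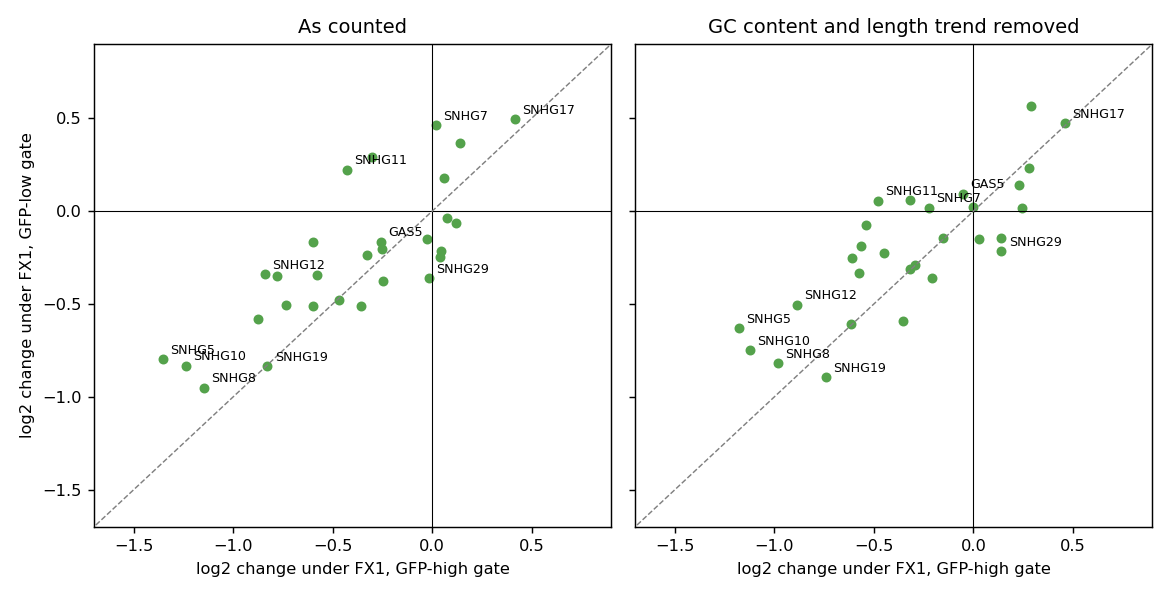
Log2 change under FX1 in the GFP-high gate (x) against the GFP-low gate (y) for 29 host transcripts, as counted (left) and after removal of a GC and length trend (right). The dashed line marks equal changes. SNHG5, SNHG8, SNHG10 and SNHG19 stay at the lower left in both panels, and SNHG7 moves from 0.46 to 0.02 on the y axis.

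The snoRNAs themselves were partly visible. The table held 145 rows annotated as snoRNAs or related small RNAs within the spans of 31 members, 110 of them of the C/D class and 26 of the H/ACA class. No such row lay within the span of GAS5, which describes the rows found here and does not mean that GAS5 carries no snoRNA. Of the 83 rows that overlap an exon of any isoform of their host, 81 had 0 counts in all 12 libraries and the highest total was 107 counts. Of the 62 rows without such an overlap, 31 had 0 counts and the highest total was 24817. How reads that overlap 2 genes were counted is not stated in the sources used here, and only 13 rows, all without exon overlap, passed the filter. The libraries were made from ribosome-depleted total RNA extracted on silica columns, which retain little of the shortest RNA. Mature snoRNA, precursors and intron reads cannot be told apart in these rows.

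Of these 13 rows, 10 were lower, 1 was higher and 2 were not called under FX1 in GFP-high, where 34.6% of all genes were lower and 33.8% higher. In GFP-low, where these shares were 34.3% and 33.7%, 5 were lower, 3 were higher and 5 were not called. Among the 10 lower in GFP-high, SNORA70I had 10, 16 and 15 counts in GFP-high DMSO and at most 9 in any other library. It passed the filter only through the group where it was high, so its lower call in GFP-high cannot count as support. SNORA73B, SNORD99 and SNORD104 are shown because their changes were far from those of their hosts at more than 1 CPM on average. They are written as DNA from the GENCODE 29 transcripts (GRCh38), with the D box (CTGA) and, where its letters were found, the C box (RTGATG) of the C/D RNAs and the ACA of the H/ACA RNA in capitals.

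SNORA73B, chr1:28508559-28508762, plus strand: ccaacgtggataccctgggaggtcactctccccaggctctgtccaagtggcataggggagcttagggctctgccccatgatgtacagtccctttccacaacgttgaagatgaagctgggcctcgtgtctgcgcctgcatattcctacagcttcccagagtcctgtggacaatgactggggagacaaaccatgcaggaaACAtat

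SNORD99, chr1:28578749-28578822, minus strand: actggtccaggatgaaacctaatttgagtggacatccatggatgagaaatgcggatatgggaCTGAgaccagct

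SNORD104, chr17:64146083-64146152, plus strand: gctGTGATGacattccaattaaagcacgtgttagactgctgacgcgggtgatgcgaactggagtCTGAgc

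SNORA73B, in an intron of SNHG3, read 163, 176 and 154 CPM in GFP-high DMSO and 39.8, 39.997 and 41.4 CPM in GFP-high FX1, 4.08-fold lower (log2 change -2.03, SE 0.033, edgeR adjusted p = 4.8e-122), while SNHG3 changed by 0.12. It read 56.3, 56.7 and 57.4 CPM in GFP-low DMSO and 32.9, 32.6 and 30.3 CPM in GFP-low FX1. The GFP-high DMSO libraries therefore stood apart from the other 9. SNORD99 in SNHG12 had the same order, with 10.2, 12.8 and 8.71 CPM in GFP-high DMSO, 1.44, 0.991 and 1.54 with FX1, 2.51, 3.93 and 3.27 in GFP-low DMSO and 1.33, 0.875 and 1.38 with FX1. Its log2 change under FX1 was -2.99 (SE 0.15) in GFP-high, beside -0.84 for its host. The GFP-high DMSO libraries also had the highest mitochondrial share, 7.88%, and its part in these rows was not tested.

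SNORD104 in SNHG25 moved in opposite directions in the gates. It read 2.86, 4.01 and 3.48 CPM and 1.79, 1.78 and 2.37 CPM in GFP-high with DMSO and FX1, and 2.44, 2.41 and 2.91 CPM and 4.84, 5.38 and 5.10 CPM in GFP-low. The log2 changes were -0.81 (SE 0.17) and 0.98 (SE 0.15), and their difference was 1.80 (SE 0.23), edgeR adjusted p = 1.4e-12. Its host was not called in either gate, at -0.30 (SE 0.18) and 0.29 (SE 0.17). SNORA71B in SNHG17 rose with its host, by 0.33 in GFP-high and 0.68 in GFP-low. SNORA74D and SNORA74A in SNHG4 changed by -0.96 and -1.03 in GFP-high, beside -0.47 for SNHG4. SNORD1B in SNHG16 read 0.431, 0.412 and 0.323 CPM in GFP-low DMSO and 0.954, 0.673 and 0.735 CPM in GFP-low FX1, a rise of 1.03 (SE 0.39) on few counts (edgeR adjusted p = 0.014), where SNHG16 changed by -0.22. Under FX1 it was also higher in GFP-low than in GFP-high, by 0.99, where SNHG16 was lower. SNORD93 in SNHG26 fell by 0.42 and 0.43 while SNHG26 changed by 0.06 and 0.18. Hosts and their rows were compared side by side, and the differences between them were not tested.

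**Figure D5:**
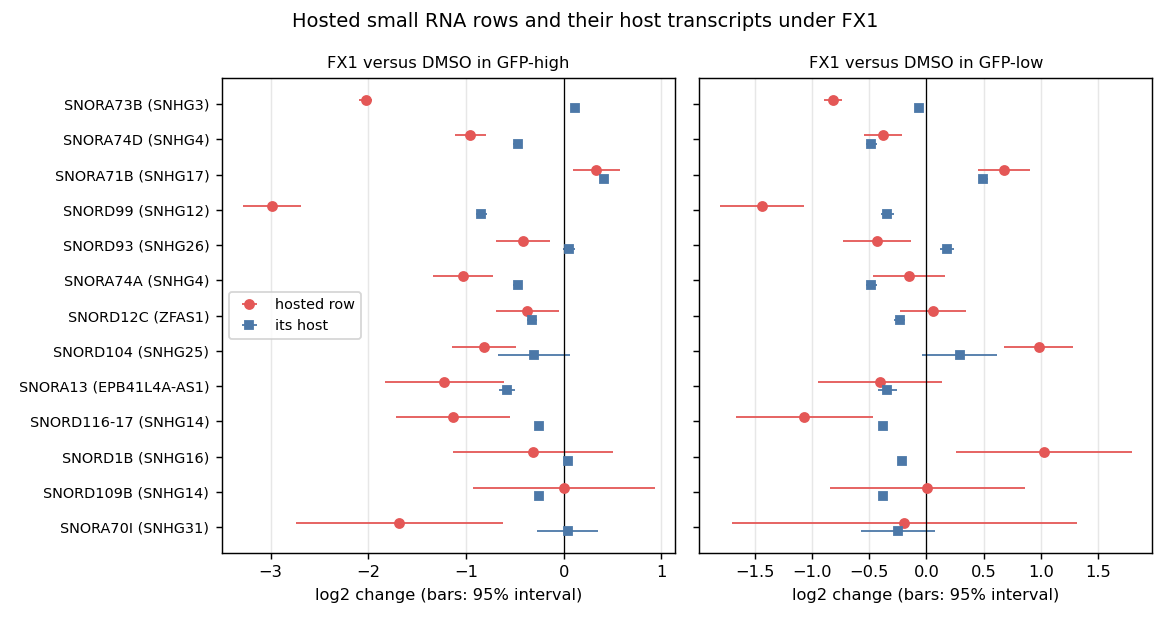
Log2 change under FX1, with 95% intervals, of the 13 tested rows of hosted small RNAs (circles) and of their host transcripts (squares), in GFP-high (left) and GFP-low (right), from the most abundant row at the top. SNORD99 and SNORA73B lie furthest below their hosts in GFP-high, at -2.99 and -2.03.

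Other genes of the same pathways were read from lists. Protein-coding genes that also carry snoRNAs, such as those for ribosomal proteins, were mostly lower as well: 27 of 40 fell and 11 rose under FX1 in GFP-high (median -0.13), and 32 fell and 7 rose in GFP-low (median -0.22). Over all genes 34.6% fell and 33.8% rose in GFP-high, and 34.3% and 33.7% in GFP-low, with medians of -0.01. TAF1D, a subunit of the selectivity factor of RNA polymerase I, went from 608 to 327 CPM in GFP-high (log2 change -0.90, SE 0.015, edgeR adjusted p = 4.2e-145), and EIF4A2, a translation initiation helicase, changed by -0.64. RPL12 and RPS24, both ribosomal proteins, changed by -0.71 and -0.66. No test compared this list with the noncoding hosts.

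Genes of the snoRNA ribonucleoproteins were mostly higher under FX1, where the same shares over all genes apply. Of 18, 12 were higher and 3 lower in GFP-high (median 0.14), and 11 higher and 2 lower in GFP-low (median 0.13). NOLC1, a chaperone of snoRNPs, went from 318 to 410.4 CPM (log2 change 0.37, SE 0.016, edgeR adjusted p = 1.3e-60), NOP10, a core protein of H/ACA particles, changed by 0.56, and in GFP-low NOP56, of C/D particles, and DKC1, the pseudouridine synthase, changed by 0.29 and 0.26. Between the gates 13 of the 18 were lower in GFP-low under DMSO and 14 under FX1, and 3 and 2 were higher, against 24.4% and 26.7% of all genes lower and 21.7% and 30.2% higher. Of 10 nonsense-mediated decay factors, 6 were higher and 3 lower in each gate under FX1. Their log2 changes ranged from -0.34 to 0.80 in GFP-high and from -0.22 to 0.82 in GFP-low. SMG5 changed by 0.80 and 0.82 and UPF1, the helicase of the pathway, by 0.29 and 0.43. Of 9 tested regulators of TOP RNAs, 4 were higher and 3 lower in GFP-high (median 0.01) and 4 higher and 5 lower in GFP-low (median -0.09). The share called higher was near that over all genes in both gates, while the 5 of 9 lower in GFP-low stood against 34.3% of all genes. PABPC1, the cytoplasmic poly(A)-binding protein, changed by -0.43 in both gates, LARP1, which binds TOP starts, changed by 0.33 and 0.44, and MTOR by 0.37 and 0.27. Between the gates these regulators were lower in GFP-low for 7 of 9 under DMSO and 6 of 9 under FX1. Whether any of these genes bears on the host transcripts was not tested.

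Several members share sequence with other genes, and the strand setting of the counting is not stated in the sources used here. Exons of another gene on the opposite strand covered 56.4% of the counted bases of EPB41L4A-AS1 (EPB41L4A), 37.6% of SNHG8 (PRSS12), 36.4% of ZFAS1, 30.6% of SNHG16, 30.3% of SNHG7 and 29.3% of SNHG6. On the same strand, overlaps covered 72.9% of SNHG21, 48.6% of SNHG25, 29.1% of SNHG32 and 23.05% of SNHG9. If reads were not assigned by strand, members with opposite-strand overlap include or lack reads of the overlapping gene, and their values are uncertain to that extent. Same-strand overlap leaves values uncertain under any strand setting. SNHG5, SNHG1, SNHG10, SNHG12, SNHG17 and SNHG19 had 6% or less on the opposite strand. On the same strand, overlaps covered 13.7% of SNHG5, 15.4% of SNHG1 and 9.35% of SNHG12. For SNHG4, SNHG3 and SNHG20 the same-strand shares were 14.01%, 10.96% and 10.69%. How reads shared with a same-strand gene were counted is not stated in the sources used here.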

How the data were processed

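RNA from 12 libraries (3 in each of 4 groups) was deposited as 1 table of raw read counts per gene. Per the submitters' processing notes, FastQC, STAR, Subread, featureCounts and R 4.2.1 were used with build hg38. The labels' protocols name ribosomal RNA depletion. The annotation release, strand setting and handling of overlapping reads are not given in the sources used here. The values of 1 gene of the other lists are not reported here. Of 60710 lines, 3 from a broken record were left out. Symbols were found for 99.6% of IDs.

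Here genes were filtered with filterByExpr, scaled by TMM and tested with edgeR 4.0.16 (R 4.3.3) by the quasi-likelihood test over all 12 libraries and 17859 genes, with Benjamini-Hochberg adjustment at 0.05. All edgeR p-values are two-sided, and log2 changes come from this fit unless another setting is named. The fit was tested on simulated data. DESeq2 1.42.0, other filters and scalings, a GC and length trend removed from each library, a replicate block and leaving out each library were alternatives, and a 1.5-fold floor (glmTreat) was added after seeing the data. Depth bounds the smallest measurable level, 0.0705 to 0.147 CPM at 3 counts.

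Library values are given, though not in every group, for the 10 members highest in CPM. They are also given for the 3 largest called rises and falls of each comparison above a log2 CPM of 2 whose groups do not overlap. From each other list, values are given for genes with the lowest p. The members and lists were chosen with earlier results of these data known. Same-numbered libraries did not deviate together (18 pairs, r from -0.03 to 0.02), so no pairing was assumed.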

Additional observations from a re-analysis of the deposited data

Results flagged for a closer look

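For 19 of the 29 tested host transcripts the FX1 effect differed between the GFP-low and GFP-high gates in the test of the difference itself (edgeR, adjusted p under 0.05), and these differences are given as GFP-low minus GFP-high on the log2 scale. Among the hosts that fell in GFP-high, the fall was smaller in GFP-low for SNHG5 (0.56), SNHG12 (0.50), SNHG15 (0.43), SNHG10 (0.40), SNHG6 (0.29), EPB41L4A-AS1 (0.24), SNHG1 (0.23), SNHG8 (0.20), GAS5 (0.09) and ZFAS1 (0.09). SNHG11 went from a fall to a rise (0.65). SNHG7 (0.44), SNHG26 (0.12) and SNHG17 (0.08) had a higher change in GFP-low without a fall called in GFP-high. The change was lower in GFP-low for SNHG29 (-0.34), SNHG16 (-0.26), SNHG3 (-0.19), SNHG14 (-0.13) and DANCR (-0.12).

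The mitochondrial share of counts was highest in GFP-high DMSO, at 7.88%, and this group enters each of these differences. With scaling that leaves out mitochondrial genes and any gene over 1% of a library, 11 in place of 14 members had a higher change called. Those lost were SNHG17, SNHG26 and ZFAS1, and the 5 lower ones stayed. Beyond this scaling, the part of the mitochondrial share in the differences was not tested. SNHG11, SNHG5, SNHG12, SNHG15 and SNHG10 kept a called difference after removal of the GC and length trend and without any single library, while those of SNHG17 and ZFAS1 did neither. SNHG26, GAS5 and DANCR kept it after removal of the trend but lost it without some single libraries.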

How the results depend on the processing

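With the GC and length trend removed, 6 members in place of 3 were higher under FX1 in GFP-high, 3 in place of 5 in GFP-low, and 10 in place of 18 were higher in GFP-low than in GFP-high under FX1. GAS5 reversed to 0.095 under FX1 in GFP-low and to 0.051 between the gates under DMSO, and was called in both. SNHG3 changed sign to 0.018 under FX1 in GFP-low, and SNHG7 and SNHG9 to -0.045 and -0.22 between the gates under FX1. SNHG3, SNHG7 and SNHG9 were not called in these cases. The cause was not tested. Against a 1.5-fold floor, added after seeing the data, 0 members were higher and 7 lower under FX1 in GFP-high (20.6% of all genes called), 0 and 4 in GFP-low (20.2%), and 0 and 0 between the gates under DMSO (1.11%), under FX1 (4.08%) and for the difference (0.846%). This test asks for a larger change by construction. Without 1 library the counts higher and lower were 2 to 4 and 18 under FX1 in GFP-high, 5 to 6 and 20 in GFP-low, 8 to 9 and 7 to 10 between the gates under DMSO, 12 to 18 and 6 to 7 under FX1, and 10 to 14 and 4 to 6 for the difference. DESeq2, its size factors, other filters and scalings and fits of only the groups compared (not made for the difference) moved no count of members by over 1.5 times and reversed no named member. With the replicate number as a block, in place of no pairing, the counts were 3 and 18, 5 and 20, 8 and 9, 18 and 6, and 14 and 5, with all 105 results of the 21 named members in 5 comparisons on the same side. Of the 12 libraries, 3 correlated best with their own number. DESeq2 left 12 in place of 18 members higher between the gates under FX1, without GAS5, SNHG1, SNHG3, SNHG9, SNHG10 and SNHG26, and 11 in place of 14 for the difference, without SNHG17, SNHG26 and ZFAS1. Depth limits SNHG21, SNHG22, SNHG25, SNHG30, SNHG31 and SNHG9, all under 7 CPM.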
